A study of Homo sapiens with 16 samples.

Results

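The genes described here encode the Eph receptors and their ephrin ligands, the semaphorins with their plexin and neuropilin receptors, the Slits with their Robo receptors, and the netrins with their receptors. They were taken by symbol from a list of 49 names, and all 49 were found among the 26485 genes that each count file holds. EPHB2 and EPHB3, the Eph receptors best known as Wnt targets of the intestinal crypt, are not in the list and are given as a check. The list holds 10 Eph receptors, 8 ephrins, 14 semaphorins, 6 plexins, 2 neuropilins, 2 Robo receptors, 3 Slits, 2 netrins and 2 netrin receptors.

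Sequencing of polyadenylated RNA covered SW480 and SW620, a pair of established human colon cancer lines derived from a primary tumour and a lymph node metastasis. Each line carried either GFP, which the labels call the mock or control, or dnLEF1, with which the labels say Wnt was inhibited. This gave 4 groups of 4 libraries, SW480 GFP, SW480 dnLEF1, SW620 GFP and SW620 dnLEF1, all from cells at passage 6 grown in DMEM, so that no group is without a transgene. dnLEF1 is commonly a form of the transcription factor LEF1 that still binds DNA but cannot bind beta-catenin, and both lines are known to carry a truncated APC and high Wnt signalling. How the transgenes were introduced, which promoter drives them and whether a line is 1 clone is not given in the sources used. The labels name the libraries as separate samples but do not say that they came from separate cultures, so p-values reflect only how far these samples spread, and that spread may be technical.

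Guidance genes were first described in neurons, where a growth cone reads ligands on other cells or in the matrix and is attracted or repelled. Ephrins are bound to the membrane and signal to Eph receptors on a touching cell, and can signal back into their own cell, whereas Slits, netrins and class 3 semaphorins are secreted. In the intestine the same families are known for keeping cell populations apart along the crypt, for epithelial adhesion and migration, and, for several members, as candidate suppressors or promoters of tumour spread.

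Each library held between 17181204 and 26153506 counts in genes. Lines of the files that name no gene took up to 24.3% of a library's reads, except in SW620 GFP replicate 3, where they took 50.5%. LEF1 counts, which include any transgene reads that align to the gene, were 51.6 ± 1.89 CPM in SW480 GFP and 246 ± 49.1 in SW480 dnLEF1 (counts scaled to library size, mean ± SD, n = 4 in each group here and below). In SW620 they were 3.36 ± 0.501 and 23.3 ± 2.35 CPM. AXIN2, a textbook Wnt target, fell in SW480 by 2.98 ± 0.07 (log2 fold change ± standard error; edgeR adjusted p = 1.22e-12), and did not pass the test in SW620 at -0.06 ± 0.05 (edgeR adjusted p = 0.607). Markers of colonic epithelium, 10 genes led by KRT8, summed to 10722 to 12487 CPM in SW480 GFP, 7087 to 8509 in SW480 dnLEF1, 9933 to 12245 in SW620 GFP and 8531 to 10832 in SW620 dnLEF1, with CDH17 at 0 in SW480 dnLEF1. In SW480, mean levels with GFP and dnLEF1 were 34.9 and 2.43 CPM for VIL1, 12.2 and 0.131 for CDX2, and 13.3 and 39.0 for CDH1. Of 12 neuronal markers 3 or 4 reached 1 CPM in a group, and TUBB3 made up most of their sum of 87.4 to 165 CPM. Mean SYP levels were 24.99, 12.7, 9.69 and 12.9 CPM in SW480 GFP, SW480 dnLEF1, SW620 GFP and SW620 dnLEF1. In the same order SNAP25 stood at 5.81, 3.52, 0.0337 and 0.0307 CPM and GAP43 at 0.902, 1.34, 6.16 and 6.06 CPM. The neuron-defining ELAVL3 and ELAVL4 were at 0 in every group. The summed markers came to 18.1 to 53.5 CPM for fibroblasts (10 genes), 0.908 to 4.00 for endothelium (9 genes) and 1.33 to 7.22 for immune cells (10 genes). In SW480 the fibroblast marker COL1A1 went from 4.84 to 28.1 CPM with dnLEF1 and LUM from 7.19 to 0. The part of these marker shifts in the results was not tested, and in bulk RNA fewer cells of a type and less RNA per cell cannot be told apart.

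In SW480 most of the guidance genes that could be tested responded to dnLEF1, and the losses outnumbered the gains. Of 41 members tested, 11 rose, 18 fell and 12 did not pass the test (edgeR adjusted p below 0.05 over all genes), where the background over all 14426 genes tested was 24.2% called higher and 24.4% called lower. The 11 and 18 members are 26.8% and 43.9% of the 41. The members were chosen with earlier results of these data known, so the shares only describe this list. Whether they differ from the background was not tested. Changes of at least 2-fold were seen in 4 of the members that rose and 10 of those that fell. Over all genes tested 10.9% were called with a change of at least 2-fold, both directions together. The median log2 fold change was -0.23 over the members and -0.00 over all genes. EFNB1, the Robo receptors, SLIT1, UNC5B, PLXNA2 and 3 secreted semaphorins (SEMA3C, SEMA3D and SEMA3F) were among the falls of at least 2-fold, and NTN4, EFNA5, EFNB2 and EPHA1 were the 4 rises. Of the 10 members that fell at least 2-fold, 7 had their lowest SW480 GFP value in replicate 1 and 6 had their highest in replicate 4. Without SW480 GFP replicate 1 the counts were 10 higher and 19 lower.

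In SW620 fewer members responded. Of 37 members tested, 7 rose, 5 fell and 25 did not pass the test, where 6.03% of all 13336 genes tested were called higher and 2.43% lower. The 7 and 5 members are 18.9% and 13.5% of the 37, and the median over the members was -0.01, against -0.00 over all genes. Rises of at least 2-fold were those of EFNA5 and NRP1, and the fall of at least 2-fold was that of EPHA1. Over all genes tested 1.40% were called with a change of at least 2-fold, both directions together. LEF1 stood at 23.3 CPM in SW620 dnLEF1 and 246 CPM in SW480 dnLEF1, and AXIN2 did not pass the test in SW620. The LEF1 level goes with the line in this design, and its part in the smaller number of calls was not tested. The count of members that fell depended on single libraries: it was 2 without SW620 GFP replicate 2 or SW620 dnLEF1 replicate 1, and 3 without SW620 GFP replicate 3, GFP replicate 4, dnLEF1 replicate 2 or dnLEF1 replicate 3.

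The Eph receptors, the receptor tyrosine kinases for ephrins, were changed in both directions. Of 6 tested in SW480, EPHA1, EPHB4 and EPHB6 rose, EPHA2 and EPHA4 fell, and EPHA10 did not pass the test. In SW620 EPHB4 rose, EPHA1 fell and 4 did not pass. These counts and those of the other families below stand beside 24.2% called higher and 24.4% lower over all genes in SW480. In SW620 these shares were 6.03% and 2.43%. Whether a family differs from these shares was not tested. Per kilobase of exon, EPHA2 was the most abundant Eph in all 4 groups, at 49.6, 41.1, 47.3 and 45.9 CPM per kb in SW480 GFP, SW480 dnLEF1, SW620 GFP and SW620 dnLEF1.

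EPHA1 (chromosome 7, 143390289 to 143408856, minus strand in hg38) is a receptor of the A class. SW480 GFP libraries held 9.63, 9.47, 9.33 and 8.70 CPM and SW480 dnLEF1 libraries 22.0, 21.2, 20.7 and 19.9 CPM, in replicate order 1 to 4 as for all values that follow. All 4 dnLEF1 libraries lay above all 4 GFP libraries, a rise of 2.26-fold (log2 1.18 ± 0.08, edgeR adjusted p = 4.27e-08). SW620 held far less of it, 1.04, 2.26, 0.905 and 2.41 CPM with GFP and 0.396, 0.614, 0.747 and 0.954 CPM with dnLEF1. The SW620 groups overlapped by 1 library of dnLEF1, and EPHA1 fell there by 1.27 ± 0.36 on the log2 scale (edgeR adjusted p = 0.0438). That call was lost without GFP replicate 2 (log2 -1.08, edgeR adjusted p = 0.149) or 4 (log2 -1.03, 0.141), or dnLEF1 replicate 1 (log2 -1.08, 0.126), 2 (log2 -1.22, 0.101) or 3 (log2 -1.31, 0.0790).

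EPHB4 (chromosome 7, 100802565 to 100827523, minus strand), the receptor of ephrin-B2 known from veins and from colon epithelium, rose in both lines. In SW480 it stood at 100, 93.7, 98.5 and 96.3 CPM with GFP and 132, 121, 122 and 124 CPM with dnLEF1. In SW620 it stood at 8.25, 9.45, 8.09 and 8.57 CPM with GFP and 13.9, 14.5, 14.5 and 14.3 CPM with dnLEF1. No dnLEF1 library overlapped a GFP library of its line, and the changes were 0.36 ± 0.06 and 0.73 ± 0.09 on the log2 scale (edgeR adjusted p = 0.000206 and 0.000102). The rise was larger in SW620 by 0.37 ± 0.09 (edgeR interaction test, adjusted p = 0.00246).

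EPHA4, a receptor that binds ephrins of both classes, held 75.8, 69.1, 65.7 and 78.8 CPM in SW480 GFP and 45.2, 59.1, 56.3 and 47.5 CPM in SW480 dnLEF1. The groups did not overlap, and the change was -0.47 ± 0.09 (edgeR adjusted p = 0.000631). In SW620 all 8 libraries lay between 5.59 and 8.37 CPM. EPHA2, an A-class receptor found in many epithelial tumours, stood at 201, 207, 193 and 221 CPM in SW480 GFP and 134, 179.5, 177 and 191 CPM in SW480 dnLEF1, all dnLEF1 libraries below all GFP libraries. Its fall of 0.27 ± 0.09 on the log2 scale (edgeR adjusted p = 0.0282) came to -0.17 without dnLEF1 replicate 1, the lowest library (edgeR adjusted p = 0.0474), and was lost without GFP replicate 2 (log2 -0.26, edgeR adjusted p = 0.0678) or 4 (log2 -0.23, 0.0920). EPHB6, an Eph without kinase activity, had 118, 129, 135 and 132 CPM in SW480 GFP and 162, 145, 140.1 and 137 CPM in SW480 dnLEF1. All 4 dnLEF1 libraries were higher, by 0.19 ± 0.07 (edgeR adjusted p = 0.0390), and the call was lost without GFP replicate 1 (log2 0.15, edgeR adjusted p = 0.0991), 2 (log2 0.19, 0.0718) or 4 (log2 0.20, 0.0555), or dnLEF1 replicate 1 (log2 0.14, 0.105) or 2 (log2 0.20, 0.0556). EPHB3, outside the list, fell in SW480 by 0.86 ± 0.12 and EPHB2 by 0.21 ± 0.07 (edgeR adjusted p = 5.21e-05 and 0.0225). In SW620 they stood at -0.06 ± 0.08 and -0.05 ± 0.05 (edgeR adjusted p = 0.743 and 0.715).

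**Figure D1:**
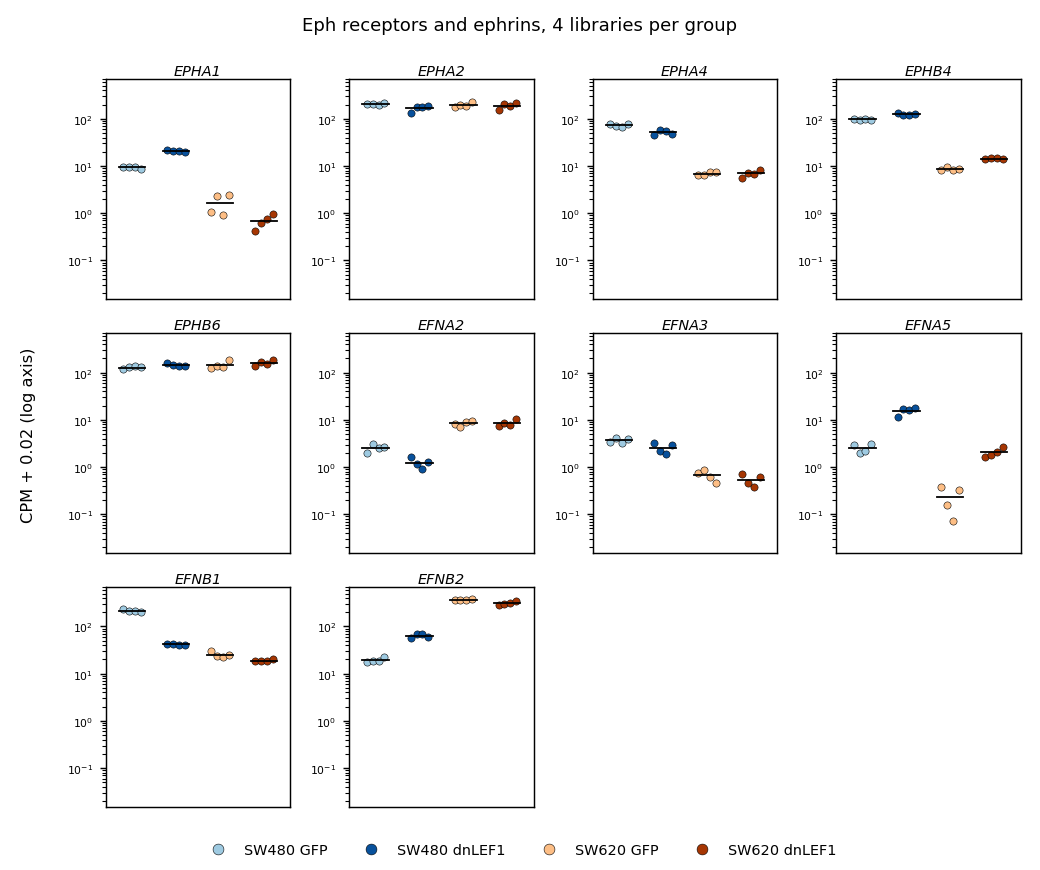
Levels of Eph receptors and ephrins in each library: vertical axis CPM + 0.02 on a log axis, horizontal axis the 4 groups, points single libraries and bars group means (n = 4). EFNB1 falls and EFNB2 rises with dnLEF1 in SW480, and EFNA5 is higher in the dnLEF1 libraries of both lines.

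The ephrins moved in both directions. Of 8 tested in SW480, EFNA5 and EFNB2 rose, EFNA2, EFNA3 and EFNB1 fell, and 3 did not pass the test. In SW620 EFNA5 rose, EFNB1 and EFNB2 fell, and 5 did not pass. Per kilobase, EFNB1 led in SW480 GFP at 64.9 CPM per kb, followed by EFNA4 at 9.06. In SW480 dnLEF1 EFNB2 and EFNB1 stood at 12.7 ± 1.08 and 12.6 ± 0.396 CPM per kb (SD, n = 4), a difference within the spread of the libraries. EFNB2 led in both SW620 groups, at 73.8 CPM per kb with GFP and 63.1 with dnLEF1.

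EFNB1 (chromosome X, 68829021 to 68842160, plus strand) encodes a transmembrane ephrin that can also signal into its own cell. The SW480 GFP libraries held 229.7, 216, 210.3 and 202 CPM and the SW480 dnLEF1 libraries 43.5, 42.1, 40.5 and 41.0 CPM. The gap between the groups was several times the range within either, and EFNB1 fell 5.12-fold (log2 -2.36 ± 0.07, edgeR adjusted p = 4.08e-12). SW620 GFP libraries held 30.8, 23.7, 22.2 and 24.5 CPM and SW620 dnLEF1 libraries 18.4, 18.7, 18.4 and 20.3 CPM. There too every dnLEF1 library was the lower, and the fall was 0.42 ± 0.10 on the log2 scale (edgeR adjusted p = 0.0121). The fall was smaller in SW620 than in SW480 by 1.94 ± 0.11 (edgeR interaction test, adjusted p = 4.22e-11).

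EFNB2 (chromosome 13, 106489745 to 106535662, minus strand), the ligand of EPHB4, had the opposite distribution. It stood at 17.9, 18.4, 18.7 and 22.9 CPM in SW480 GFP and 57.7, 68.4, 67.7 and 59.9 CPM in SW480 dnLEF1, with no overlap. The rise was 3.27-fold (log2 1.71 ± 0.09, edgeR adjusted p = 1.76e-09). SW620 held 364, 372, 365 and 376 CPM with GFP and 291, 295, 322 and 355 CPM with dnLEF1, a small fall without overlap (-0.23 ± 0.07, edgeR adjusted p = 0.0493). The SW620 call was lost without GFP replicate 2 (log2 -0.22, edgeR adjusted p = 0.132), 3 (log2 -0.23, 0.0904) or 4 (log2 -0.22, 0.116), or dnLEF1 replicate 1 (log2 -0.19, 0.146), 2 (log2 -0.19, 0.113) or 3 (log2 -0.24, 0.0759).

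EFNA5 (chromosome 5, 107376894 to 107670937, minus strand) encodes an ephrin anchored to the membrane by a lipid. SW480 GFP libraries had 2.96, 2.01, 2.19 and 3.05 CPM and SW480 dnLEF1 libraries 11.4, 16.9, 16.3 and 17.4 CPM. SW620 GFP libraries had 0.363, 0.138, 0.0532 and 0.313 CPM and SW620 dnLEF1 libraries 1.58, 1.78, 2.04 and 2.69 CPM. The dnLEF1 libraries were the higher in each line without overlap, by 6.06-fold in SW480 (log2 2.60 ± 0.17) and 8.97-fold in SW620 (log2 3.17 ± 0.36, edgeR adjusted p = 1.59e-08 and 6.8e-05). The change in SW620 less that in SW480 was 0.57 ± 0.44 (edgeR interaction test, adjusted p = 0.355), so a difference between the lines was not detected.

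EFNA2, another lipid-anchored ephrin, stood at 1.97, 2.99, 2.47 and 2.60 CPM in SW480 GFP and 1.57, 1.14, 0.883 and 1.25 CPM in SW480 dnLEF1. It fell by 1.04 ± 0.22 on the log2 scale (edgeR adjusted p = 0.00129) without overlap, and SW620 held between 7.10 and 10.2 CPM in both groups. EFNA3 stood at 3.43, 4.07, 3.28 and 3.83 CPM in SW480 GFP and 3.24, 2.20, 1.89 and 2.87 CPM in SW480 dnLEF1. The highest dnLEF1 library lay just below the lowest GFP library, and the change was -0.52 ± 0.18 (edgeR adjusted p = 0.0316). The EFNA3 call was lost without GFP replicate 2 (log2 -0.46, edgeR adjusted p = 0.0848) or 4 (log2 -0.49, 0.0689), or dnLEF1 replicate 2 (log2 -0.45, 0.0866) or 3 (log2 -0.39, 0.0947). EFNA1, EFNA4 and EFNB3 passed the test in neither line, with log2 fold changes between -0.23 ± 0.12 and 0.26 ± 0.11 in SW480.

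Of 13 semaphorins tested in SW480, 3 rose, 5 fell and 5 did not pass the test, beside 24.2% higher and 24.4% lower over all genes. The falls of at least 2-fold were all in class 3, whose members are secreted and bind neuropilin and plexin receptors. In SW620 11 were tested, 3 class 3 members rose, SEMA6A fell and 7 did not pass. SEMA3B, SEMA4C and SEMA3A led per kilobase in SW480 and SEMA3F and SEMA3A in SW620: SEMA3B stood at 10.1 CPM per kb in SW480 GFP, and SEMA3F at 16.6 in SW620 GFP.

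SEMA3D (chromosome 7, 84995553 to 85187056, minus strand), a repellent of axons and endothelial cells, was nearly lost from SW480 with dnLEF1. SW480 GFP libraries held 7.38, 11.8, 12.5 and 20.2 CPM and SW480 dnLEF1 libraries 0, 0, 0 and 0.0463 CPM. This is 1156 counts against 1 count, in dnLEF1 replicate 4, a ratio of 1172 (95% exact Poisson interval 210 to 46272, counting error only; edgeR adjusted p = 7.16e-09). In SW620 the gene stood at 14.4, 16.5, 18.1 and 19.5 CPM with GFP and 22.7, 18.5, 27.0 and 27.6 CPM with dnLEF1. The SW620 groups overlapped, the rise was 0.49 ± 0.13 (edgeR adjusted p = 0.0235), and it was lost without GFP replicate 2 (log2 0.47, edgeR adjusted p = 0.0733) or dnLEF1 replicate 3 (log2 0.43, 0.0759) or 4 (log2 0.42, 0.0862). Without SW480 dnLEF1 replicate 4 the fitted log2 fold change in SW480 went from -9.62 to -11.21, and both values depend on the prior count.

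SEMA3A (chromosome 7, 83955777 to 84492724, minus strand), the founding collapsin of the family, moved in opposite directions. SW480 had 53.5, 70.5, 67.4 and 88.4 CPM with GFP and 35.0, 43.9, 46.7 and 34.3 CPM with dnLEF1. SW620 had 129, 129, 134 and 125 CPM with GFP and 194, 161, 195 and 175 CPM with dnLEF1. The groups did not overlap in either line, and the changes were -0.80 ± 0.13 in SW480 and 0.49 ± 0.07 in SW620 (edgeR adjusted p = 0.000208 and 0.000225). They differed between the lines by 1.30 ± 0.16 (edgeR interaction test, adjusted p = 4.14e-06).

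SEMA3F (chromosome 3, 50155045 to 50189075, plus strand), a ligand of NRP2 studied as a tumour suppressor, held 7.86, 13.8, 12.8 and 15.0 CPM in SW480 GFP and 0.700, 1.44, 1.51 and 1.16 CPM in SW480 dnLEF1. The fall was 10.2-fold (log2 -3.34 ± 0.24, edgeR adjusted p = 4.23e-08), with the groups far apart. SW620 libraries lay between 67.1 and 83.2 CPM in both groups and did not pass the test (-0.09 ± 0.07, edgeR adjusted p = 0.511). SEMA3C, scarce in SW480, had 88 counts over the GFP libraries and 3 over the dnLEF1 libraries, a ratio of 29.7 (95% exact Poisson interval 10.2 to 144; edgeR adjusted p = 1.21e-06). In SW620 it lay between 0.912 and 2.07 CPM. SEMA3B, another class 3 ligand, rose in SW620 from 29.4, 27.0, 25.5 and 31.4 CPM to 36.6, 38.9, 35.5 and 35.9 CPM. These groups did not overlap (log2 0.37 ± 0.07, edgeR adjusted p = 0.00515), and in SW480 its change was 0.07 ± 0.06 (edgeR adjusted p = 0.383).

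Class 4 semaphorins are bound to the membrane. SEMA4B stood at 16.9, 16.2, 15.1 and 16.5 CPM in SW480 GFP and 23.9, 21.7, 19.1 and 18.9 CPM in SW480 dnLEF1, a rise of 0.37 ± 0.09 without overlap (edgeR adjusted p = 0.00398). SEMA4D, the ligand of PLXNB1, stood at 37.3, 34.9, 33.4 and 36.3 CPM and 42.1, 43.9, 44.5 and 39.0 CPM, a rise of 0.26 ± 0.07 without overlap (edgeR adjusted p = 0.00651). SEMA4C, a ligand of PLXNB2, stood at 32.7, 33.0, 36.5 and 37.8 CPM and 28.2, 29.3, 28.9 and 27.8 CPM, a change of -0.29 ± 0.07 (edgeR adjusted p = 0.00430). In all 3 the dnLEF1 libraries and the GFP libraries were separate. None of these 3 passed in SW620, where SEMA4D stood at -0.33 ± 0.13 (edgeR adjusted p = 0.140, and not called by DESeq2 or limma voom).

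SEMA5A, a transmembrane semaphorin with thrombospondin repeats, had counts in every SW480 library. It held 12.1, 9.74, 9.66 and 11.2 CPM in SW480 GFP and 13.5, 14.8, 14.7 and 11.4 CPM in SW480 dnLEF1, and no count in any of the 8 SW620 libraries. The SW480 groups overlapped, and the rise of 0.35 ± 0.11 (edgeR adjusted p = 0.0172) was lost without GFP replicate 2 (log2 0.31, edgeR adjusted p = 0.0549) or 3 (log2 0.31, 0.0542), or dnLEF1 replicate 2 (log2 0.32, 0.0518). SEMA6A, a transmembrane ligand of PLXNA2, was low: SW620 GFP libraries had 2.31, 3.09, 2.98 and 2.46 CPM and SW620 dnLEF1 libraries 1.09, 1.72, 1.49 and 1.99 CPM. It fell by 0.78 ± 0.20 on the log2 scale without overlap (edgeR adjusted p = 0.0282), and the call was lost without GFP replicate 2 (log2 -0.70, edgeR adjusted p = 0.101) or 3 (log2 -0.73, 0.0819), or dnLEF1 replicate 1 (log2 -0.64, 0.0775) or 3 (log2 -0.75, 0.0727).

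**Figure D2:**
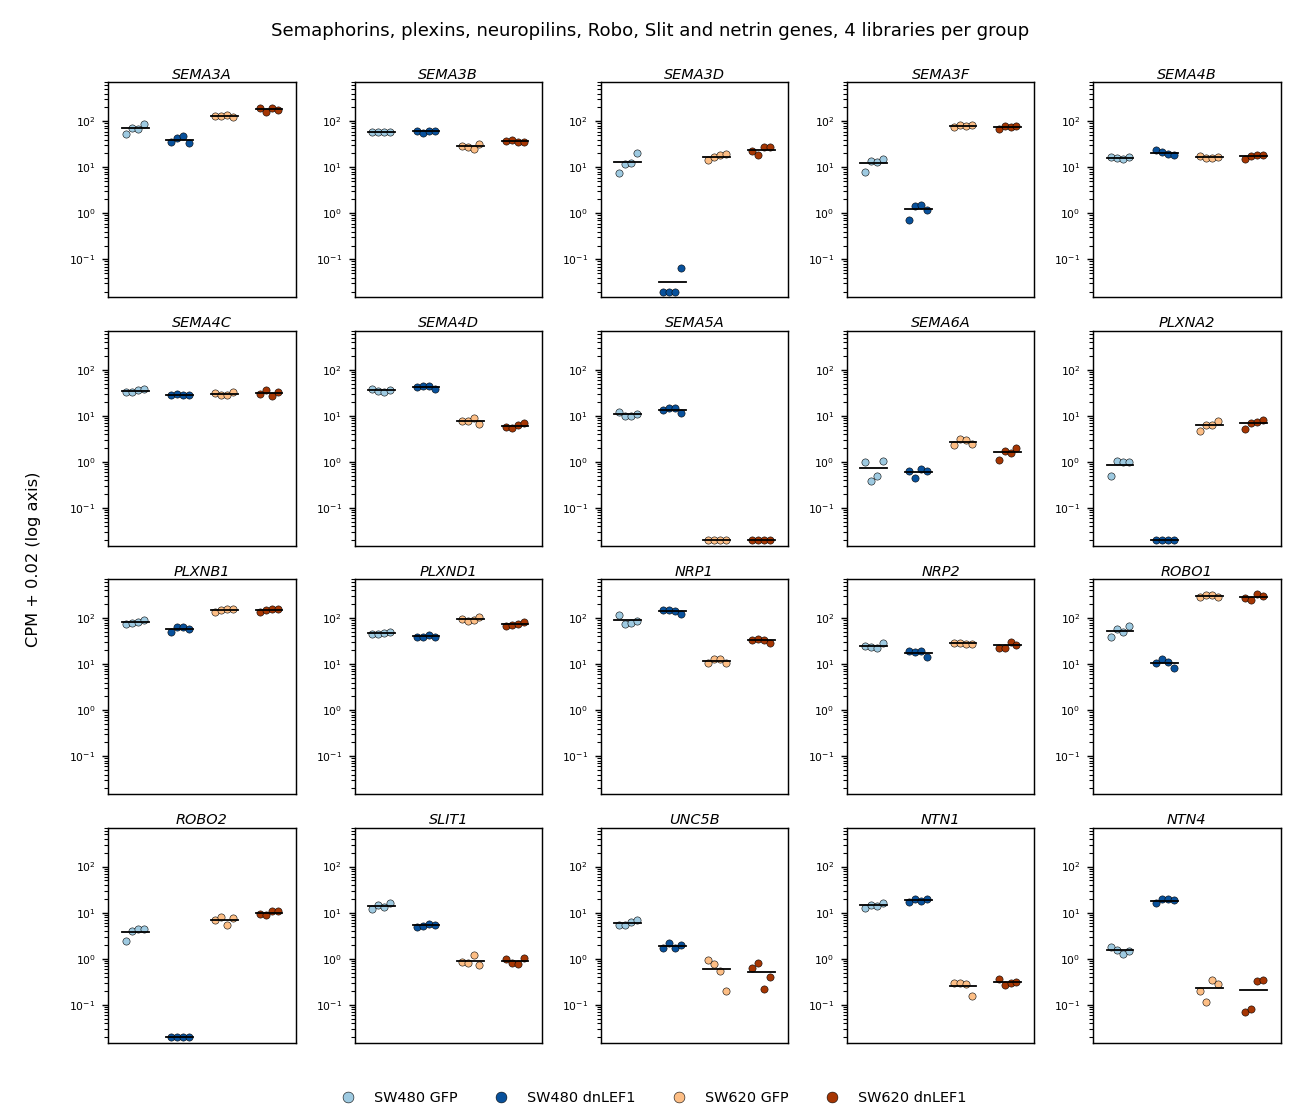
Levels of semaphorins, plexins, neuropilins, Slit-Robo and netrin genes in each library: vertical axis CPM + 0.02 on a log axis, horizontal axis the 4 groups, points single libraries and bars group means (n = 4). ROBO2 and PLXNA2 have no count in the 4 SW480 dnLEF1 libraries and SEMA3D has a single count, whereas all 3 are present in both SW620 groups.

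Among the plexins, the signalling receptors for semaphorins, no member rose with dnLEF1. In SW480 PLXNA2, PLXNB1 and PLXND1 fell and 3 did not pass the test, and in SW620 PLXND1 fell and 5 did not pass. PLXNA2 (chromosome 1, 208022242 to 208244384, minus strand) had 0.474, 1.03, 0.952 and 0.957 CPM in SW480 GFP and no count in any SW480 dnLEF1 library. Its 76 counts against 0 make the level at least 25.7-fold lower, against a floor of 3 counts over the 4 libraries (edgeR adjusted p = 2.35e-05). SW620 held 4.58, 6.36, 6.28 and 7.73 CPM with GFP and 5.04, 6.93, 7.23 and 8.08 CPM with dnLEF1, overlapping groups (0.13 ± 0.17, edgeR adjusted p = 0.742).

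PLXNB1, the receptor of SEMA4D, stood at 72.9, 78.9, 81.2 and 89.1 CPM in SW480 GFP and 51.1, 62.7, 65.3 and 58.7 CPM in SW480 dnLEF1. The groups did not overlap (-0.43 ± 0.08, edgeR adjusted p = 0.000703). PLXND1, a receptor for class 3 semaphorins best known from endothelium, fell in both lines. It went from 46.4, 45.4, 46.6 and 49.8 CPM to 39.5, 39.8, 42.3 and 39.5 CPM in SW480, and from 95.7, 86.9, 89.6 and 105 CPM to 68.6, 71.7, 73.8 and 82.2 CPM in SW620. Neither pair of groups overlapped, and the changes were -0.22 ± 0.06 and -0.35 ± 0.07 (edgeR adjusted p = 0.0104 and 0.00784). PLXNB2 was the most abundant plexin per kilobase in all 4 groups, between 18.4 and 27.9 CPM per kb.

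Neuropilins are co-receptors that hand class 3 semaphorins, and also VEGF, to their signalling partners. NRP1 (chromosome 10, 33177492 to 33336262, minus strand) held 119, 75.5, 77.8 and 85.3 CPM in SW480 GFP and 154, 149.8, 141 and 120.2 CPM in SW480 dnLEF1. The highest GFP library, replicate 1, lay just under the lowest dnLEF1 library, and the rise was 0.66 ± 0.13 (edgeR adjusted p = 0.000606). In SW620 NRP1 held 10.3, 13.0, 13.0 and 10.5 CPM with GFP and 33.4, 35.3, 33.1 and 28.9 CPM with dnLEF1, far apart, a rise of 2.79-fold (log2 1.48 ± 0.10, edgeR adjusted p = 3.35e-07). The rise was larger in SW620 by 0.82 ± 0.18 (edgeR interaction test, adjusted p = 0.00148). NRP2 fell in SW480 from 24.4, 23.9, 22.0 and 28.9 CPM to 19.0, 17.9, 19.1 and 14.2 CPM without overlap (-0.49 ± 0.11, edgeR adjusted p = 0.00174). In SW620 it stood at -0.15 ± 0.09 (edgeR adjusted p = 0.399). Per kilobase, NRP2 exceeded NRP1 in SW620 GFP (2.04 against 1.02 CPM per kb) and NRP1 exceeded NRP2 in SW620 dnLEF1 (2.84 against 1.83).

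Slit ligands and Robo receptors form a repulsive pair that also limits cell migration outside the nervous system. All 3 that could be tested fell in SW480. ROBO1 (chromosome 3, 78597239 to 79767998, minus strand) had 38.7, 57.6, 50.1 and 66.2 CPM in SW480 GFP and 10.5, 13.2, 10.9 and 8.38 CPM in SW480 dnLEF1. No libraries overlapped, and the fall was 4.91-fold (log2 -2.29 ± 0.16, edgeR adjusted p = 2.77e-08). SW620 libraries held between 254 and 329.7 CPM in both groups (-0.05 ± 0.08, edgeR adjusted p = 0.774).

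ROBO2 (chromosome 3, 75906695 to 77649964, plus strand), which lies beside ROBO1 in the genome, had 2.45, 3.93, 4.28 and 4.47 CPM in SW480 GFP and no count in any SW480 dnLEF1 library. With 338 counts against 0 the level was at least 114-fold lower, against the floor of 3 counts over the 4 libraries (edgeR adjusted p = 1.98e-07). In SW620 it held 6.89, 7.93, 5.48 and 7.73 CPM with GFP and 9.10, 8.84, 10.6 and 10.6 CPM with dnLEF1, a rise without overlap (0.48 ± 0.13, edgeR adjusted p = 0.0277). That rise was lost without GFP replicate 3 (log2 0.39, edgeR adjusted p = 0.0758), the lowest library, or dnLEF1 replicate 3 (log2 0.44, 0.0875) or 4 (log2 0.44, 0.0950). SLIT1, a ligand of both, stood at 12.0, 15.0, 13.3 and 16 CPM in SW480 GFP and 4.81, 5.20, 5.64 and 5.28 CPM in SW480 dnLEF1. It fell 2.68-fold with the groups apart (log2 -1.42 ± 0.12, edgeR adjusted p = 1.77e-07). In SW620 it lay between 0.715 and 1.17 CPM in both groups.

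The netrins are secreted relatives of laminin. NTN4 (chromosome 12, 95657807 to 95791189, minus strand), which is part of basement membranes, had the largest rise of any member in SW480. It stood at 1.74, 1.52, 1.24 and 1.46 CPM with GFP and 15.8, 19.6, 19.4 and 18.3 CPM with dnLEF1. The groups lay far apart, a rise of 12.2-fold (log2 3.61 ± 0.13, edgeR adjusted p = 3.93e-11). SW620 held at most 0.332 CPM in any library, too few counts for the test within that line. NTN1, the classical attractant, rose in SW480 from 12.8, 14.5, 13.7 and 16.5 CPM to 17.1, 19.3, 18.0 and 19.7 CPM, without overlap (0.37 ± 0.09, edgeR adjusted p = 0.00484). UNC5B, a repulsive netrin receptor of the dependence receptor family, fell in SW480 from 5.37, 5.36, 6.09 and 6.88 CPM to 1.66, 2.12, 1.72 and 1.99 CPM. Its fall was 3.15-fold without overlap (log2 -1.65 ± 0.15, edgeR adjusted p = 7.69e-07). Levels in SW620 were under 1 CPM and did not pass the test (-0.35 ± 0.48, edgeR adjusted p = 0.761).

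The promoters of a few of these members are shown because LEF1 and its relatives bind a short DNA core. PLXNA2, SLIT1 and SEMA3F were picked because they hold a match and fell in SW480. EFNB1 and EFNA5 were picked because each changed in 1 direction in both lines. Members with large falls and no match, among them ROBO1, ROBO2 and SEMA3D, are not printed. RefSeq windows of 300 bases, 250 before to 50 after each listed start, were searched on both strands for the letters CTTTG followed by AA, AT, TA or TT. Of 42 members with a window, 8 (19.0%) held at least 1 of them, against 16.4% of all 27305 genes with a window. Over windows the shares were 8 of 64 (12.5%) and 13.8% of 35116. Among members with a window, 4 of the 16 that fell in SW480 held one (PLXNA2, PLXNB1, SEMA3F and SLIT1), 0 of the 9 that rose and 4 of the 9 tested members that did not pass (EFNA4, PLXNA1, SEMA3E and SEMA4G). A match describes the letters only. The 250 bases before the start are given 5′ to 3′ on the gene's strand, with the match in capitals, for PLXNA2 (chr1:208244385-208244634, minus strand, hg38), SLIT1 (chr10:97185960-97186209, minus strand), and the SEMA3F window that holds a match (chr3:50158769-50159018, plus strand). EFNB1 (chrX:68828771-68829020, plus strand) and EFNA5 (chr5:107670938-107671187, minus strand), the ephrins with changes in 1 direction in both lines, hold no match in their windows.
PLXNA2: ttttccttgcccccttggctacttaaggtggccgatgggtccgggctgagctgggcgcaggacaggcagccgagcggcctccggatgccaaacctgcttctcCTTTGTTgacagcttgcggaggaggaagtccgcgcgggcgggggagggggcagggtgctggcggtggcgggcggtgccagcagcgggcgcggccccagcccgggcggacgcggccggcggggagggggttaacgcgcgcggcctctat
SLIT1: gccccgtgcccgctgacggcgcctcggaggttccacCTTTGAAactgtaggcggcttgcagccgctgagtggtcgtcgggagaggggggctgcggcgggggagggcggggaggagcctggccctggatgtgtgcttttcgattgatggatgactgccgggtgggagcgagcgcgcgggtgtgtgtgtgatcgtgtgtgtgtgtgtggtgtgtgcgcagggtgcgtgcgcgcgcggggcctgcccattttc
SEMA3F: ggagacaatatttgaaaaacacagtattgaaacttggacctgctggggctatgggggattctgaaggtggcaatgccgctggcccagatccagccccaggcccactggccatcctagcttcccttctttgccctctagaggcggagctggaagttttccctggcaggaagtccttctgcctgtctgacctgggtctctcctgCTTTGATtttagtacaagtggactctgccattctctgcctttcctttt
EFNB1: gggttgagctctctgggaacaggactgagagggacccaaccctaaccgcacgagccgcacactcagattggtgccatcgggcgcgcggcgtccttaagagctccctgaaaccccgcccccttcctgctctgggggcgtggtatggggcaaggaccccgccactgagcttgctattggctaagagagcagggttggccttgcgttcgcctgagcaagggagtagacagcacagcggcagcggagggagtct
EFNA5: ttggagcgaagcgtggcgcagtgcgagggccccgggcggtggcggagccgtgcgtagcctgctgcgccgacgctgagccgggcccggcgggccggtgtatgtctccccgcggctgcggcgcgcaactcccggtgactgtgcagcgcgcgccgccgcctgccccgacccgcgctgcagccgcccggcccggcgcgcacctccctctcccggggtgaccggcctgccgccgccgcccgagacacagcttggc

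In PLXNA2 the match begins 148 bases before the start and in SLIT1 214, each in the only window of the gene. SEMA3F has 3 windows, and its match begins 48 bases before a listed start that lies inside the gene. The SEMA3F windows at the beginning of the gene hold no match. PLXNA2, SLIT1 and SEMA3F were at least 25.7-fold, 2.68-fold and 10.2-fold lower in SW480 dnLEF1. PLXNB1 was 1.35-fold lower, and 1 of its 2 windows held a match, 95 bases before a listed start inside the gene. Among the other members that fell at least 2-fold, EFNA2, EFNB1, SEMA3C, SEMA3D, ROBO1 and ROBO2 held no match in their windows and UNC5B had no window. In SW620 PLXNA2, SLIT1 and SEMA3F lay at 0.13 ± 0.17, 0.03 ± 0.26 and -0.09 ± 0.07 on the log2 scale and did not pass the test.

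The responses of the lines were then set against each other. Of the 37 members tested in both lines, 10 were called in both, 5 in the same direction and 5 in opposite directions. That is 27.0% called in both and 13.5% in each of these classes. Over all 12904 genes tested in both lines 5.27% were called in both, 3.39% in the same direction and 1.88% in opposite directions. EPHB4, EFNA5 and NRP1 rose and EFNB1 and PLXND1 fell in both lines. EPHA1 and EFNB2 rose in SW480 and fell in SW620, and SEMA3A, SEMA3D and ROBO2 fell in SW480 and rose in SW620. The SW620 calls of EPHA1, EFNB2, SEMA3D and ROBO2 were lost under 6, 7, 4 and 4 of 14 alternative settings. Those of SEMA3A and of the 5 members with the same direction were lost under none, so the classes are not equally firm. A further 13 members fell in SW480 and did not pass in SW620, and EPHB6, SEMA4B and SEMA4D rose in SW480 and did not pass in SW620. In the edgeR fits 9 members passed in neither line: EPHA10, EFNA1, EFNA4, EFNB3, SEMA4F, SEMA4G, PLXNA1, PLXNA3 and PLXNB2. Of these PLXNA1 was called in SW620 by DESeq2 and with a replicate block. PLXNA3 was called in SW480 by limma voom, in the fit of all 16 libraries, with no filter on low counts and with a replicate block. EFNB3 was called in SW480 with no filter on low counts and with a replicate block. PLXNA3 was also called in SW480 without GFP replicate 1 or dnLEF1 replicate 3 and in SW620 without dnLEF1 replicate 3, and EFNB3 in SW480 without GFP replicate 4 or dnLEF1 replicate 1.

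The difference itself was tested as an interaction over all 16 libraries. The lines also differ in the LEF1 level reached with dnLEF1, and the part of that level in the interaction was not tested. Of 41 members, 17 had a higher log2 change in SW620 than in SW480, 4 a lower one, and 20 did not pass, where 16.2% of all 14926 genes tested were called higher and 12.3% lower. The median over the members was 0.23, against 0.02 over all genes. Each of the 5 members called in opposite directions passed this test, EFNB2 with -1.93 ± 0.11 and EPHA1 with -2.44 ± 0.33 among them (edgeR adjusted p = 4.71e-11 and 8.78e-06). The opposite calls came from the same libraries, so passing was largely fixed by the choice of these members and adds no independent support. Of those that fell in SW480 and did not pass in SW620, ROBO1 differed by 2.24 ± 0.19 and SEMA3F by 3.25 ± 0.24 (edgeR adjusted p = 9.61e-09 and 1.57e-09). NTN4 differed by -3.63 ± 0.58 (edgeR adjusted p = 6.43e-05). It had 18 counts in each SW620 group, too few for the test within that line, so this value rests on its rise in SW480.

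Calls for 3 members rested on single libraries. The UNC5B difference of 1.30 ± 0.48 (edgeR adjusted p = 0.0452) was lost without SW480 GFP replicate 2, 3 or 4, SW480 dnLEF1 replicate 1, 3 or 4, SW620 GFP replicate 3 or 4, or SW620 dnLEF1 replicate 1, 2 or 4, with log2 values from 0.98 (without SW620 GFP replicate 4, edgeR adjusted p = 0.0825) to 1.41 (without SW620 dnLEF1 replicate 4, 0.0540), and the adjusted p reached 0.136 without SW620 dnLEF1 replicate 2. EPHA4, at 0.50 ± 0.16, was lost without SW620 GFP replicate 2 (log2 0.46, edgeR adjusted p = 0.0518) or SW620 dnLEF1 replicate 4 (log2 0.39, 0.0789). SEMA4C, at 0.36 ± 0.11, was lost without SW480 GFP replicate 4 (log2 0.32, edgeR adjusted p = 0.0535) or SW620 dnLEF1 replicate 4 (log2 0.33, 0.0527).

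**Figure D3:**
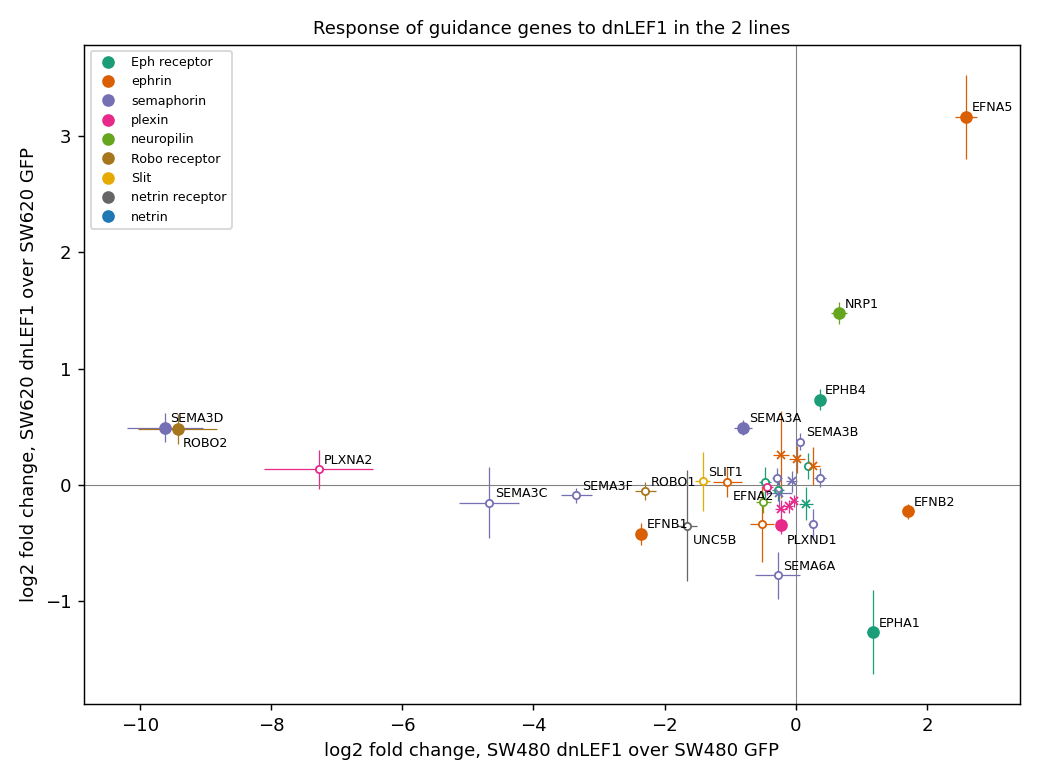
Response of each member to dnLEF1: horizontal axis log2 fold change in SW480, vertical axis log2 fold change in SW620, lines through points the standard errors, filled points called in both lines, open points in 1 and crosses in neither. EFNA5 and NRP1 lie high on the right, and SEMA3D, ROBO2 and PLXNA2 lie far to the left with fitted values that depend on the prior count.

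The GFP libraries of the lines were compared to show the guidance genes without dnLEF1. Between them 12 of 41 members were higher in SW620, 22 lower and 7 did not pass, where 37.7% of all 14350 genes tested were called higher and 40.3% lower. Together 34 of the 41 members were called, a share near that of all genes. Differences of at least 2-fold numbered 7 higher and 18 lower, beside 29.0% of all genes tested, both directions together. The median over the members was -0.47, against -0.02 over all genes. This comparison shares its GFP libraries with the dnLEF1 comparisons, so their values are not independent of one another.

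EFNB2 had the largest excess in SW620 GFP, 18.9-fold above SW480 GFP (log2 4.24 ± 0.08, edgeR adjusted p = 4.48e-15), from the libraries given above. PLXNA2 was 7.33-fold higher and SEMA3F 6.47-fold higher (log2 2.87 ± 0.23 and 2.69 ± 0.14, edgeR adjusted p = 3.6e-08 and 1.97e-10). SEMA5A, with 972 counts in SW480 GFP and 0 in SW620 GFP, was at least 303-fold lower in SW620, against the floor of 3 counts over 4 libraries (edgeR adjusted p = 1.71e-10). NTN1 stood at 0.272, 0.277, 0.266 and 0.134 CPM in SW620 GFP, 59.8-fold below SW480 GFP (log2 -5.90 ± 0.19, edgeR adjusted p = 1.78e-12). SLIT1 stood at 0.816, 0.784, 1.17 and 0.715 CPM in SW620 GFP, 16.3-fold below (log2 -4.02 ± 0.17, edgeR adjusted p = 2.24e-11). None of these 6 had overlapping groups, which follows largely from their choice as the largest called differences each way.

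Ligands and receptors named above as pairs stood on the same side in some cases and on different sides in others. EFNB2 was higher in SW620 and its receptor EPHB4 11.3-fold lower (log2 -3.50 ± 0.07, edgeR adjusted p = 7.93e-15). SLIT1 was lower, and its receptors ROBO1 and ROBO2 were 5.68-fold and 1.86-fold higher (edgeR adjusted p = 1.13e-10 and 0.000430). SEMA4D was 4.64-fold lower and PLXNB1 1.87-fold higher (edgeR adjusted p = 1.83e-11 and 3.99e-08). SEMA6A was 3.81-fold higher, and its receptor PLXNA2 was higher too (edgeR adjusted p = 1.53e-05 for SEMA6A). SEMA4C and PLXNB2 were both lower, at -0.23 ± 0.07 and -0.47 ± 0.05 on the log2 scale (edgeR adjusted p = 0.00955 and 9.17e-07). SEMA3F was higher, and its co-receptor NRP2 stood at 0.19 ± 0.08 (edgeR adjusted p = 0.0549). NRP2 was called higher by limma voom, with a replicate block, and in edgeR fits without SW480 GFP replicate 4 or SW620 GFP replicate 3.

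The calls for SEMA3C and SEMA3E, whose groups overlapped, rested on single libraries. SEMA3C, at 0.69 ± 0.27, was lost without SW480 GFP replicate 2 (log2 0.63, edgeR adjusted p = 0.0720) or 3 (log2 0.66, 0.0636) or SW620 GFP replicate 2 (log2 0.54, 0.107) or 3 (log2 0.57, 0.0889). SEMA3E, at -1.05 ± 0.38, was lost without SW480 GFP replicate 3 (log2 -0.90, edgeR adjusted p = 0.0661) or 4 (log2 -0.82, 0.0799) or SW620 GFP replicate 4 (log2 -0.91, 0.0606).

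**Figure D4:**
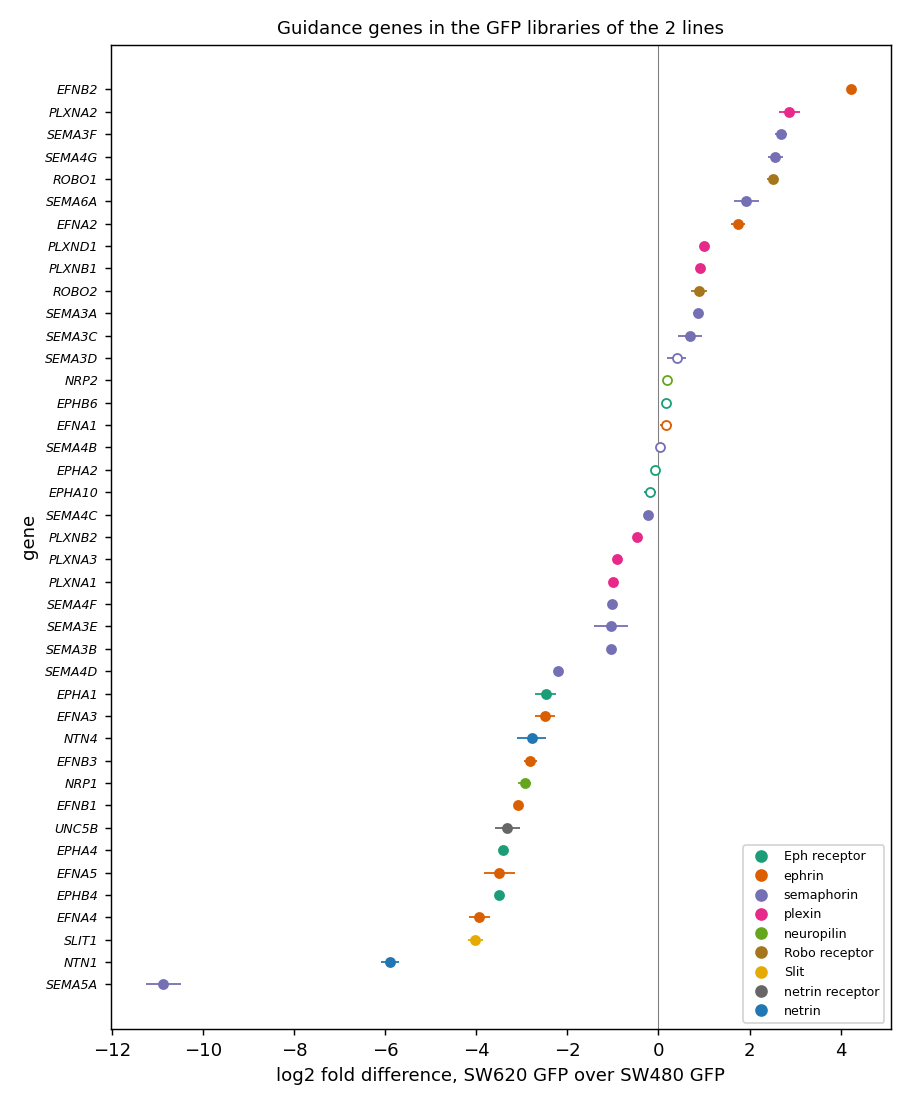
Difference between the GFP libraries of the lines: horizontal axis log2 fold change of SW620 GFP over SW480 GFP with its standard error, vertical axis the members, filled points called and open points not called. EFNB2 is the farthest to the right at 4.24, and SEMA5A, with no count in SW620, is the farthest to the left.

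The members lie on many chromosomes, and their changes were set beside those of the 20 nearest tested genes, 10 on each side. In SW480 16 of the 29 called members had the sign of their neighbours' median, which ran from -0.48 to 0.33 on the log2 scale, and in SW620 7 of 12 had it, from -0.12 to 0.43. EFNA5 rose in SW480 while 19 of its 20 neighbours had a negative log2 change (median -0.48), and EFNB2 rose while 18 of 20 did (median -0.41). Others changed about as much as their neighbours in SW480. EPHB4 rose by 0.36 ± 0.06 beside a median of 0.33, with 16 of 20 positive. EPHB6 rose by 0.19 ± 0.07 beside 0.19, and SEMA4C changed by -0.29 ± 0.07 beside -0.24. The part of the shared shift in these changes was not tested. In SW620 EPHB4, SEMA3A and SEMA3D, all on chromosome 7, rose among neighbours with medians of 0.43, 0.43 and 0.39, and for each 19 of the 20 were positive. SEMA3A and SEMA3D lie close together and share some of these neighbours. Their own changes of 0.73 ± 0.09, 0.49 ± 0.07 and 0.49 ± 0.13 stand beside those medians, and the part of the shared shift in their rise was not tested. EPHA1, also on chromosome 7, fell in SW620 among neighbours of which 18 of 20 were positive (median 0.22). EFNA5 and NRP1 rose in SW620 among neighbours with medians of -0.00 and 0.03.

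**Figure D5:**
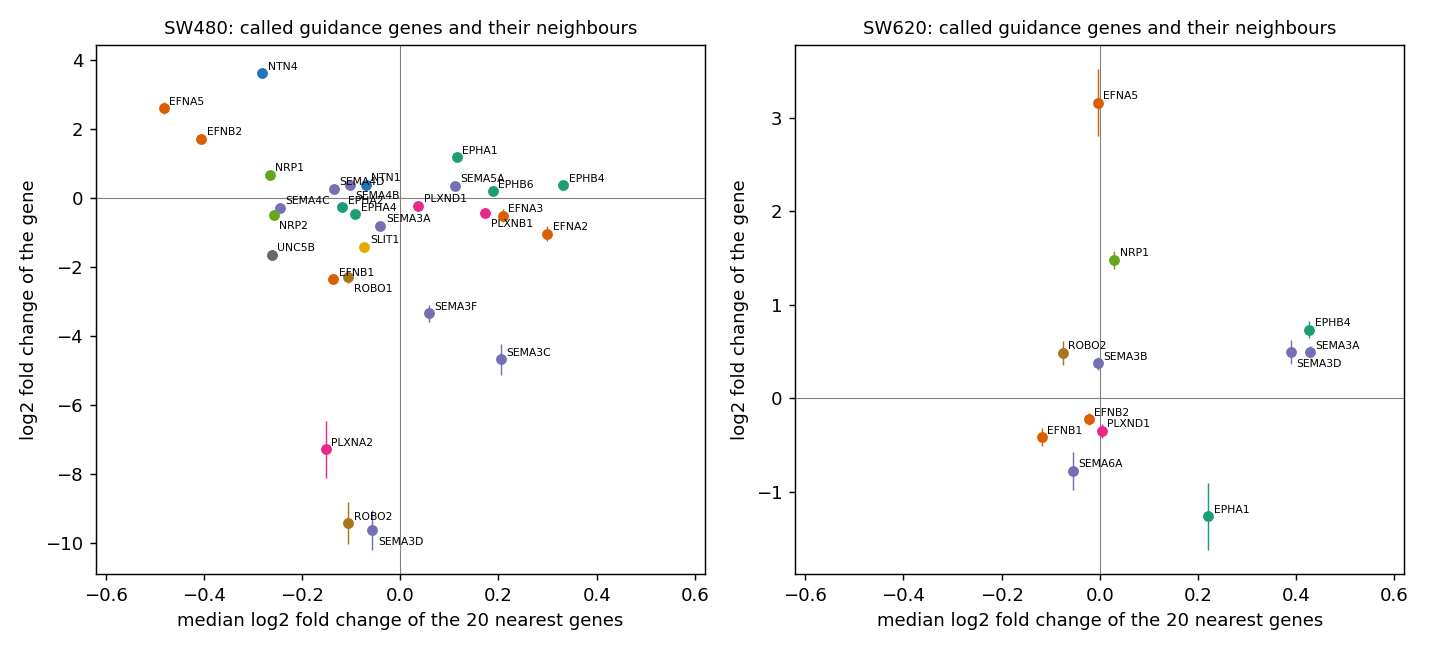
Called members and their genomic surroundings: horizontal axis the median log2 fold change of the 20 nearest tested genes, vertical axis the log2 fold change of the member with its standard error, left panel SW480 and right panel SW620. In SW620 EPHB4, SEMA3A and SEMA3D sit at neighbour medians of about 0.4, and most other members near 0.

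Guidance genes outside the list of 49 were counted from 2 further lists. Of 31 other ligands and receptors, 18 were tested in SW480, where 7 rose and 4 fell (median log2 -0.08), beside 24.2% higher and 24.4% lower over all genes tested. SEMA7A, a lipid-anchored semaphorin, rose from a mean of 4.47 ± 1.10 CPM to one of 30.9 ± 2.00 CPM, and its receptor PLXNC1 from 2.11 ± 0.393 CPM to 9.01 ± 2.02 CPM (log2 fold changes 2.78 ± 0.13 and 2.10 ± 0.19, edgeR adjusted p = 6.93e-10 and 4.83e-07). FLRT3, a ligand of the UNC5 receptors, fell by 2.87 ± 0.23 on the log2 scale (edgeR adjusted p = 1.31e-07). In SW620 11 were tested and edgeR called 0, with 0 at an unadjusted p below 0.05, and DESeq2 and limma voom also called 0, with SEMA6B alone at an unadjusted p below 0.05 in each.

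The list of 83 effectors of guidance signalling also holds cell-surface proteins such as MET, ERBB2 and ITGB1. In SW480 78 of them were tested, where 26 rose and 22 fell (median log2 0.04), also beside 24.2% and 24.4% over all genes. MET, a receptor tyrosine kinase that partners with plexins, stood at 44.4 ± 4.57 CPM with GFP and 188 ± 19.1 CPM with dnLEF1, a rise of 2.08 ± 0.09 (edgeR adjusted p = 2.08e-10). RAC2 and ENAH, regulators of actin, rose by 1.81 ± 0.09 and 1.44 ± 0.07, and SRGAP2, a Slit-Robo effector, fell by 1.17 ± 0.07 (edgeR adjusted p = 6.46e-10, 1.57e-09 and 6.82e-09). In SW620 73 were tested, 8 rose and 3 fell (median log2 -0.02), beside 6.03% and 2.43% over all genes. CRMP1, a semaphorin effector, stood at 22.7 ± 2.20 CPM with GFP and 53.4 ± 4.76 CPM with dnLEF1, a rise of 1.24 ± 0.08, and MET and LIMK1 rose by 0.52 ± 0.07 and 0.50 ± 0.07 (edgeR adjusted p = 5.31e-07, 0.000209 and 0.000408). MICAL2, an actin-oxidising enzyme, fell by 0.59 ± 0.09 (edgeR adjusted p = 0.000677).

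Of the 49 members 8 had too few counts for any test. EPHA7 had no count in any of the 16 libraries, which allows up to 0.00849 CPM over all of them (3 counts). EPHA3 and EPHA5 had counts in 2 libraries each and SLIT3 in 2. EPHB1, SEMA4A, SLIT2 and DCC, the netrin receptor often lost in colon cancer, were each found in some libraries, and the highest value of any of the 8 in any library was 0.365 CPM. Their behaviour with dnLEF1 was not detectable at this depth.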

How the data were processed

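Polyadenylated RNA from 16 libraries was measured, per the labels' protocols with TRIzol extraction and a TruSeq kit. The deposited files hold raw counts, whole reads for each gene symbol. Trimmomatic, TopHat2, HTSeq, DESeq2 and hg38 are named in the submitters' processing notes. Tool versions, annotation and strandedness are not given in the sources used, so a gene and an antisense partner may share reads. Reads aligned to several places stand in a summary line, 39.4% of the total in SW620 GFP replicate 3 and 7.61% to 9.46% in the others, and all such lines were left out.

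The main test was that of edgeR 4.0.16 under R 4.3.3 (TMM, filterByExpr by group, quasi-likelihood test, Benjamini-Hochberg adjustment over all genes tested). Each pairwise comparison was fitted on its 8 libraries and the interaction on all 16. A standard error is the size of the log2 fold change divided by the root of the F statistic. CPM use effective library sizes of all 16 libraries, and CPM per kb divide by the union of exons in GENCODE 44, which also gave the gene positions. Promoter windows are those of RefSeq on hg38, and 7 members had none (EPHA10, EFNB3, SEMA3A, SEMA6A, NRP1, UNC5B and NTN1). The test was checked on simulated counts.

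The members and lists were chosen with earlier results of these data known. Values in every library are given for members called in a dnLEF1 comparison with a mean of at least 1 CPM in 1 of its groups, and for the 3 largest differences each way between the GFP groups. Of each further list up to 4 called genes with the smallest adjusted p are named. Within groups the chi-square per degree of freedom between libraries was 1.99 to 22.2, above counting noise. Replicate numbers were not taken as pairs in the main test. Same-numbered libraries of 2 groups deviated together with correlations from -0.07 to 0.25, and 5 of 12 were above 0.1. Between the SW620 groups they were 0.25, -0.00, 0.12 and 0.15, and a replicate block was run as an alternative.

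Alternatives were DESeq2 1.42.0 and its size factors, limma 3.58.1 voom, no filter on low counts, plain library sizes for levels, 25 neighbours on each side in place of 10, a fit of all 16 libraries, a replicate block, and leaving out each library.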

Additional observations from a re-analysis of the deposited data

Results flagged for a closer look

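In 5 groups of 4 libraries 1 library lay far from the other 3, of 100 such groups looked at. Chance gives about 1 in 20. EFNB1 was highest in SW620 dnLEF1 replicate 4 at 20.3 CPM, EFNB2 in SW480 GFP replicate 4 at 22.9 CPM and PLXND1 in SW480 dnLEF1 replicate 3 at 42.3 CPM. SEMA3B was lowest in SW480 dnLEF1 replicate 2 at 56.8 CPM and SEMA4B in SW620 dnLEF1 replicate 1 at 15.4 CPM.

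For 21 members the log2 response to dnLEF1 differed between the lines in the edgeR interaction test. The response in SW620 less that in SW480 was -2.44 for EPHA1, 0.50 for EPHA4 and 0.37 for EPHB4 among the Eph receptors, and 1.07 for EFNA2, 1.94 for EFNB1 and -1.93 for EFNB2 among the ephrins. Among the semaphorins it was 1.30 for SEMA3A, 0.31 for SEMA3B, 3.25 for SEMA3F, 0.36 for SEMA4C and -0.59 for SEMA4D. It was 0.42 for PLXNB1, 0.82 for NRP1, 2.24 for ROBO1, 1.46 for SLIT1, 1.30 for UNC5B and -3.63 for NTN4. NTN4 had 18 counts in each SW620 group, so its value rests on the rise in SW480. The fitted values of 4.52 for SEMA3C, 10.10 for SEMA3D, 7.36 for PLXNA2 and 9.86 for ROBO2 rest on 3 or fewer counts in SW480 dnLEF1, depend on the prior count and are no bounds. No explanation was tested for any of these.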

How the results depend on the processing

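Over the alternatives no called value of a member reversed: 2412 tests kept their direction and side of the threshold, 66 lost a call and 28 gained one. Of the calls, 25 of 29 in SW480, 7 of 12 in SW620, 32 of 34 between the GFP groups and 18 of 21 in the interaction were lost under no alternative. Leaving out 1 library gave 2 to 5 members lower in SW620 (5 with all libraries). With a replicate block 1825 genes were called in SW620, against 1128 without it, and 8 members rose and 6 fell there, against 7 and 5. With the block EPHB6 in SW480 (adjusted p = 0.0699), SEMA3C between the GFP groups (0.0503) and UNC5B in the interaction (0.0505) lost their edgeR calls. The block gained calls for EFNB3 and PLXNA3 in SW480, EPHB6 and PLXNA1 in SW620, NRP2 and SEMA3D between the GFP groups, and EPHA2 in the interaction. Of 12 libraries 7 correlated best with their own number. By limma voom EPHA1 in SW620 (adjusted p = 0.0767) and SEMA3C between the GFP groups (0.0596) were not called. In the edgeR fit of all 16 libraries EPHB6 in SW480 (0.125) and EFNB2 (0.0819), SEMA3D (0.155) and ROBO2 (0.0816) in SW620 were not called. Of 120 mean levels 10 moved by more than 1 SD with plain library sizes, and of 41 neighbour medians 12 moved with 25 genes on each side. Depth limits the genes at or near 0 counts: fitted folds of SEMA3C, SEMA3D, PLXNA2, ROBO2 and SEMA5A are replaced by ratios of counts or bounds. The calls that single libraries decide stand beside the genes above.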
